A study of Mus musculus with 6 samples.

Results

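DEAD box and DEAH box RNA helicases are the family to which DDX6 belongs, and their mRNA levels were followed in mouse embryonic stem (ES) cells in which DDX6 was targeted for degradation. Members were all protein-coding genes whose symbol begins with Ddx or Dhx and a number. Ddx6 itself, the tagged gene, and the cytoplasmic RNA sensor genes Ddx58 and Dhx58 were left out by name. The rule gave 50 genes of the 55487 in the count table, 35 named Ddx and 15 named Dhx, and all 50 passed the filter on low counts. The members were chosen by name and not by any measured value. The choice of members, role groups and gene lists was made with earlier results of these data known.

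Every library came from the ES cell line D6AdP, in which both alleles of Ddx6 encode DDX6-AID-mCherry. The line is also heterozygous for a reporter of decapping bodies (DCP1a-EGFP/+) and carries a transgene for OsTIR1-FLAG. AID is an auxin-inducible degron: with an auxin analog present, the plant protein OsTIR1 directs a tagged protein to the proteasome. Cells were grown with PD0325901, CHIR99021 and leukemia inhibiting factor, passaged onto mitomycin-C treated fibroblast feeders, and collected before the auxin analog 5-Ph-IAA or after 3 or 6 h with it at 500 nM, with 2 polyA libraries at each of the 3 times. The 0 h cells carry the same tag, reporter and transgene as the others. The comparisons use no untagged cells and no cells kept for the same hours without 5-Ph-IAA, so the time in culture and the agent cannot be told apart from the loss of DDX6. D6AdP is 1 cell line, and nothing in the labels tells if the pair of libraries at each time stems from separate cultures. The p-values therefore rest on differences between libraries that may be only technical.

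RNA helicases of this family bind RNA through a shared core of 2 RecA-like domains and use ATP to unwind short duplexes or to strip proteins from RNA. Motif II of the core, which takes part in ATP hydrolysis, reads Asp-Glu-Ala-Asp in DEAD box proteins and Asp-Glu-Ala-His in DEAH box proteins. Members act at most steps in the life of an RNA: ribosome assembly, splicing, export, microRNA processing, translation and decay. DDX6 belongs to the decay and storage end of this series, where it represses translation, promotes decapping and builds P-bodies.

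The coding bases around motif II are shown because they are what the family's name rests on. Each run is 30 bases of coding sequence, 5′ to 3′, from the GENCODE M21 transcripts on GRCm38, and capitals mark the 12 bases of motif II. Ddx6 comes first, followed by the 3 members whose proteins align best to DDX6, and then by other members discussed below: 3 pairs of close paralogs and a pair of DEAH box genes that both fell at 6 h.
Ddx6: atagtgctaGATGAGGCAGATaaattgttg
Ddx39: tttgtgctaGATGAATGTGACaagatgctg
Ddx39b: tttattttgGACGAGTGTGACaagatgctt
Ddx20: tttattcttGATGAAGCAGATaagctttta
Ddx19a: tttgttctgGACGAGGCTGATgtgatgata
Ddx19b: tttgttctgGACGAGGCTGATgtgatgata
Ddx21: gttgtcctgGATGAAGTCGACcagatgttg
Ddx50: gttgtgcttGATGAAGTAGATcaaatgtta
Ddx5: cttgtccttGATGAAGCTGATaggatgctt
Ddx17: cttgtgttgGATGAGGCTGACcggatgctt
Dhx33: gtcattttgGACGAGGCCCATgagcggact
Dhx37: gtgatcattGACGAAGCCCATgagcggagc
The Ddx6 run is spliced from 2 exons. The Dhx33 run lies at chr11:70999799-70999828 on the minus strand, that of Ddx20 at chr3:105683445-105683474 on the minus strand, and that of Ddx21 at chr10:62591872-62591901 on the minus strand. The runs of Ddx19a and Ddx19b differ at 0 of the 30 bases, those of Ddx5 and Ddx17 at 6, those of Ddx21 and Ddx50 at 6, and those of Ddx39 and Ddx39b at 7. Such short runs do not rank the pairs by closeness. Over their aligned coding bases, Ddx39 and Ddx39b are 81.0% identical, Ddx5 and Ddx17 73.9%, and Ddx21 and Ddx50 71.7%. Motif II read DEAD in 27 of the 50 members and DEAH in 9. It read DEVH in 5 members, DEVD in Ddx21, Ddx28 and Ddx50, DECD in Ddx39 and Ddx39b, DEIH in Dhx9 and Dhx36, and DESD in Ddx52. The search found no motif II in Dhx32.

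The 6 libraries held between 16357142 and 21846959 counts, and the 50 helicase genes took between 0.8253% and 0.8568% of them. Levels are CPM (a gene's share of the library's counts, on the usual scale of this unit), scaled by TMM factors, which set the bulk of genes equal between libraries. All 10 ES cell markers examined were detected, from 69.02 to 1314 mean CPM, and the 26 feeder fibroblast markers took 2.51% to 2.93% of the counts. The wells held both cell types, and in such a mixture fewer cells of a type and less RNA per cell cannot be told apart. Ddx6 itself was measured before treatment at 267.5 and 249.9 CPM, after 3 h at 268.6 and 271.4 CPM and after 6 h at 258.2 and 247.1 CPM. It was called in none of the 3 comparisons, with an adjusted p from edgeR's quasi-likelihood test of 0.602 at 3 h and 0.581 at 6 h, both against 0 h. The degron acts on the protein, so the Ddx6 mRNA does not check the depletion.

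Per length of exon sequence, the members spanned from 0.0507 CPM per kilobase for Ddx60 to 183 CPM per kilobase for Ddx3x, with a median of 18.9. After Ddx3x came Ddx5 at 167, Ddx21 at 114, Ddx39b at 89.6, Ddx17 at 84.7 and Dhx9 at 70.5 CPM per kilobase. These levels divide by all annotated exons of a gene, and are a description of order only.

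After 3 h, none of the 50 helicase genes was called higher or lower than at 0 h by edgeR's quasi-likelihood test at an adjusted p under 0.05. Of the 15748 genes tested, 0.0508% were called higher and 0.0889% lower, so the members' count of 0 is near the background. DESeq2 and limma voom also called 0 members. At an unadjusted p under 0.05 there were 5 members, or 10%, beside 10.7% of all genes tested: Ddx19b, Ddx47, Ddx52, Ddx55 and Dhx9. The members' median log2 fold change was 0.03, against −0.001 over all genes tested. The lowest value was that of Ddx19b, at −0.20 ± 0.05 (SE) with an adjusted p of 0.127. At this time all 26 feeder markers had a log2 fold change below 0, with a median of −0.13 and 0 called, and their part in the helicase values was not tested.

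After 6 h, 14 of the 50 helicase genes had fallen and 2 had risen against 0 h. Among all genes tested, 12.3% were called lower and 10% higher, while 28% of the members were lower and 4% higher. Helicase genes are well expressed, and calls depend on level: among the 9449 genes with a mean of at least 10 CPM, 18.2% were called lower and 11.4% higher, beside 29.8% and 4.26% of the 47 members at that level. The changes were small. Log2 fold changes of called members lay between −0.34 for Dhx33 and 0.19 for Ddx11, and 0 members changed by 1.5-fold or more. The median of the absolute log2 fold change was 0.08 over the members and 0.14 over all genes. Among genes with at least 10 CPM it was 0.10, beside 0.07 for the 47 members at that level. The libraries of 6 h and 0 h did not overlap in 31 of the 50 members, or 62%, beside 59.4% of all genes tested. A lack of overlap in this comparison therefore sets no member apart. For 3 h against 0 h it was 30 members, or 60%, beside 42.2% of all genes. For 6 h against 3 h it was 34 members, or 68%, beside 60.8%. The share of genes without overlap between all 3 times was not computed.

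**Figure D1:**
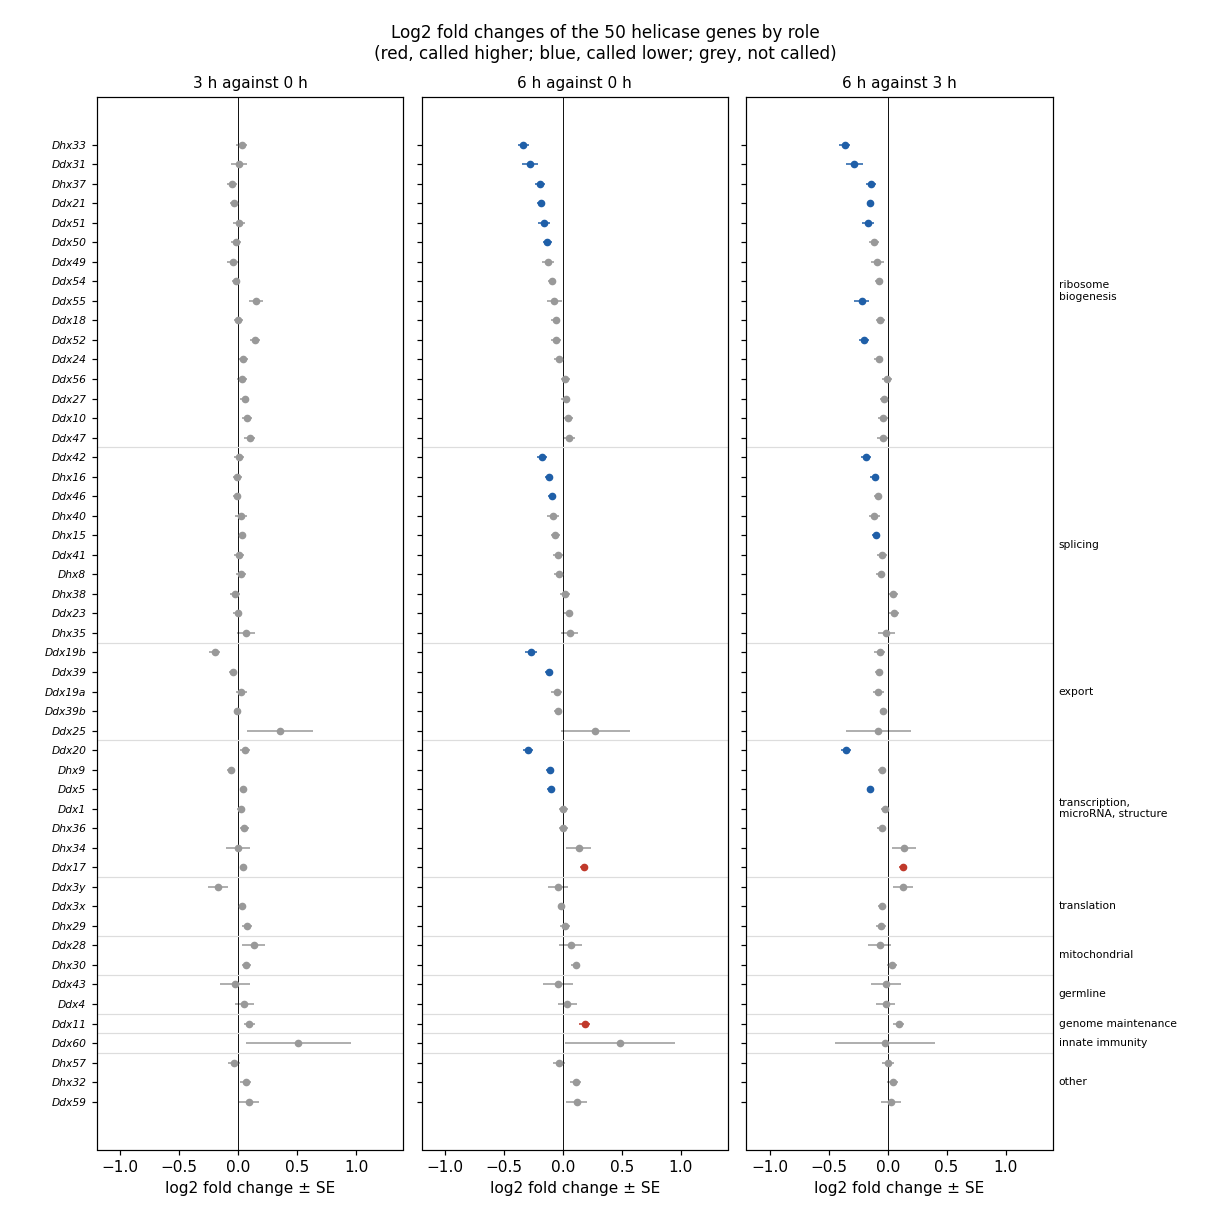
Log2 fold changes with standard errors of the 50 helicase genes, grouped by role, for 3 h against 0 h, 6 h against 0 h and 6 h against 3 h; red and blue points were called higher and lower. No gene is coloured at 3 h, 14 are blue and 2 red at 6 h against 0 h, and 12 are blue and 1 red at 6 h against 3 h.

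Which members were called depended on single libraries. At 6 h against 0 h, each fit without 1 library also called fewer of all genes tested. Smaller counts in these fits are therefore not particular to the members. Without replicate 1 or 2 of 0 h, 9 and 6 members were called lower. Without replicate 1 or 2 of 3 h the counts were 8 and 9, and without replicate 1 or 2 of 6 h they were 7 and 10. With library totals in place of TMM factors, 7 members were lower and 4 higher, and the split over all genes turned from 1575 higher and 1940 lower to 2128 higher and 1457 lower. DESeq2 called 8 lower and 1 higher. The 6 members called at 6 h against 0 h under all 16 alternatives were Dhx33, Ddx20, Ddx21, Ddx19b, Dhx37, which were lower, and Ddx17, which was higher.

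The helicases of ribosome biogenesis, which act in the nucleolus on precursor ribosomal RNA and its snoRNAs, are the largest role group: 6 of 16, or 37.5%, fell and 0 rose at 6 h against 0 h, with a median log2 fold change of −0.08. The share called lower was 42.9% in the group of transcription and microRNA processing, 40% in export and 30% in splicing, beside the 12.3% of all genes and the 18.2% of genes with at least 10 CPM. Dhx33 (ENSMUSG00000040620, GRCm38 chr11:70984091-71004437), which takes part in the transcription of ribosomal RNA genes, was at 96.4 and 96.0 CPM at 0 h, 96.1 and 100.1 CPM at 3 h, and 79.4 and 73.2 CPM at 6 h. The libraries of 0 and 3 h overlapped and both libraries of 6 h lay below them. Its log2 fold change at 6 h was −0.34 ± 0.05 (SE, adjusted p = 8.5e-05), the lowest among the members. Ddx21 (ENSMUSG00000020075, chr10:62580251-62602281), a nucleolar helicase of ribosomal RNA transcription and processing and the most abundant of the group per length, was at 631.6 and 615.0 CPM at 0 h, 606.8 and 605.9 CPM at 3 h, and 544.4 and 548.8 CPM at 6 h. The values at 3 h lay just under those of 0 h, and those at 6 h below all others. Its log2 fold change at 6 h was −0.19 ± 0.03 (SE, adjusted p = 0.00029).

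Dhx37, which frees U3 snoRNA from the precursor of the small subunit, was at 88.3 and 88.2 CPM at 0 h, 86.9 and 83.3 CPM at 3 h, and 76.8 and 77.6 CPM at 6 h. Both libraries of 6 h lay below the other 4, and the log2 fold change was −0.19 ± 0.04 (SE, adjusted p = 0.00403). Ddx31, a nucleolar helicase, was at 27.4 and 29.7 CPM at 0 h, 28.3 and 29.0 CPM at 3 h, and 22.4 and 24.6 CPM at 6 h, with the 6 h libraries again lowest and a log2 fold change of −0.28 ± 0.07 (SE, adjusted p = 0.00814). Without replicate 2 of 0 h its log2 fold change was −0.22 (adjusted p = 0.0837), and without replicate 1 of 6 h it was −0.21 (adjusted p = 0.096), within a range of 0.000447 to 0.0979 over the 16 alternatives. Ddx51, which acts in the release of U8 snoRNA from the precursor of 28S ribosomal RNA, went from 55.0 and 54.1 CPM at 0 h and 54.9 and 54.7 CPM at 3 h to 49.6 and 47.9 CPM at 6 h. The 6 h libraries were lowest, with a log2 fold change of −0.16 ± 0.05 (SE, adjusted p = 0.0247), but the call was lost on leaving out any 1 of the 6 libraries, with an adjusted p between 0.0104 and 0.216 over all alternatives. Ddx50, the nucleolar paralog of Ddx21, fell by 0.13 on the log2 scale (adjusted p = 0.032), and this call too was lost without any 1 library. Among the 10 members of the group not called, those of highest CPM, not divided by length, were Ddx54, with a log2 fold change of −0.09, and Ddx27, with 0.03.

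**Figure D2:**
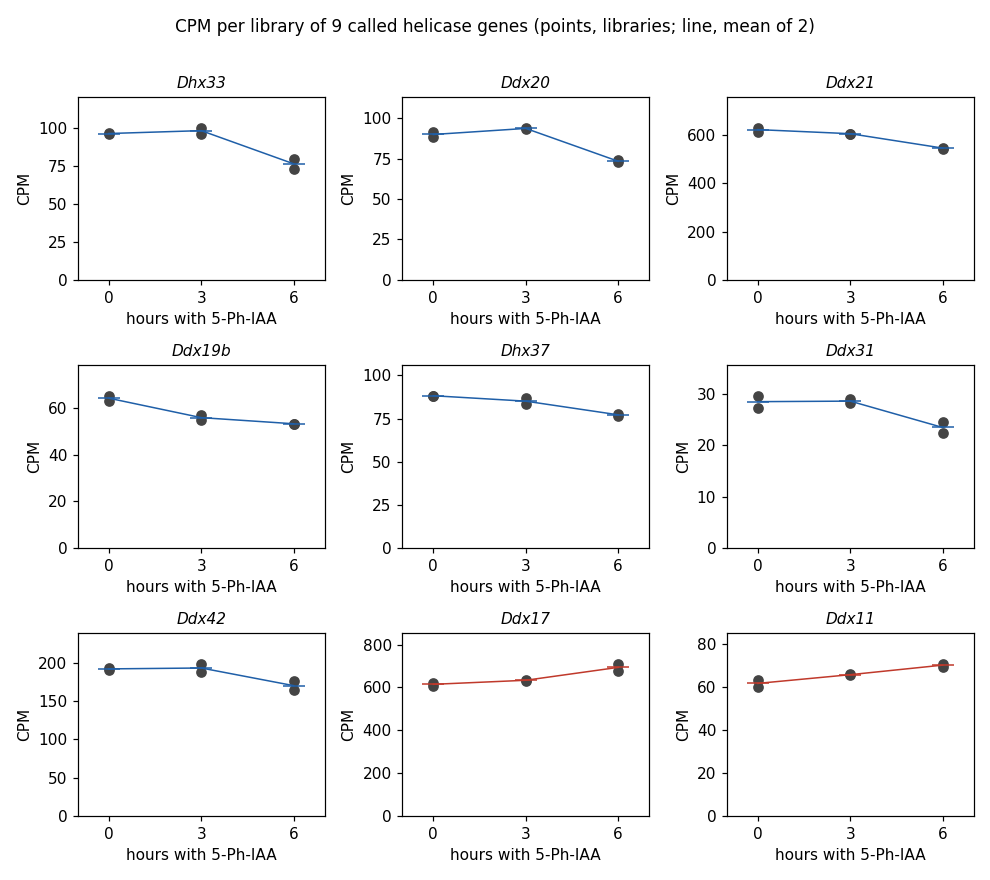
CPM in each of the 6 libraries (points) against hours with 5-Ph-IAA for 9 called helicase genes, with a line through the means of 2. Dhx33, Ddx20, Ddx21, Dhx37, Ddx31 and Ddx42 are lowest in both libraries of 6 h, Ddx19b is below 0 h from 3 h on, and Ddx17 and Ddx11 are highest at 6 h.

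Of the 10 splicing helicases 3 fell and 0 rose at 6 h against 0 h. Ddx42, which associates with the U2 snRNP factor SF3B1, was at 193.1 and 190.9 CPM at 0 h, 187.5 and 198.8 CPM at 3 h, and 164.0 and 176.2 CPM at 6 h. The 6 h libraries were lowest, with a log2 fold change of −0.17 ± 0.04 (SE, adjusted p = 0.00679). Without replicate 1 of 6 h the log2 fold change was −0.12 (adjusted p = 0.0932, range over the alternatives 7e-05 to 0.0932). Dhx16, the mammalian relative of yeast Prp2, which remodels the spliceosome before the first step of splicing, is the most abundant of the group per length. It was at 223.5 and 232.1 CPM at 0 h, 223.1 and 230.1 CPM at 3 h, and 210.1 and 209.6 CPM at 6 h. The libraries of 0 and 3 h overlapped and those of 6 h lay below them, with a log2 fold change of −0.12 ± 0.04 (SE, adjusted p = 0.0258). Ddx46, the relative of yeast Prp5, fell by 0.10 (adjusted p = 0.0496). The Dhx16 call held in 7 of 16 alternatives and that of Ddx46 in 4. Leaving out any 1 library ended the call of Ddx46, with an adjusted p of 0.0122 to 0.213 over the alternatives, and leaving out any library except replicate 1 of 0 h ended that of Dhx16, with 0.00259 to 0.206. Among those not called, Dhx15, which dismantles spliceosomes, had a log2 fold change of −0.06, and Ddx23, a helicase of the U5 snRNP, one of 0.05.

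The export helicases include those that align best to DDX6 among the members, the only proteins aligned. They were not all called: 2 of 5 fell and 0 rose at 6 h against 0 h. Within each pair of near twins only 1 gene was called, and the difference between the twins was given no test of its own beyond their ratio, described further on. Ddx19b, whose protein frees mRNA from export factors at the nuclear pore, was at 63.1 and 65.3 CPM at 0 h, 57.0 and 54.7 CPM at 3 h, and 53.1 and 53.3 CPM at 6 h. Both libraries of each later time lay below both of 0 h. Its log2 fold change was −0.27 ± 0.05 (SE, adjusted p = 0.00073) at 6 h. Ddx39, a component of mRNA export complexes, was at 204.8 and 201.4 CPM at 0 h, 196.8 and 197.6 CPM at 3 h, and 189.5 and 185.3 CPM at 6 h, without overlap between any of the times. Its log2 fold change at 6 h was −0.12 ± 0.04 (SE, adjusted p = 0.0262). The call held in 7 of 16 alternatives, with an adjusted p of 0.00489 to 0.159, and only leaving out replicate 1 of 6 h among the 6 libraries kept it. Its near twin Ddx39b, which couples splicing to export in the TREX complex, was at 340.9 and 344.4 CPM at 0 h, 344.1 and 338.3 CPM at 3 h, and 326.5 and 339.0 CPM at 6 h. Both libraries of 6 h lay below both of 0 h, while 3 and 6 h overlapped, and its log2 fold change at 6 h of −0.04 ± 0.03 (SE) was not called (adjusted p = 0.403). Of the Ddx39 exons, 17.4% lie under a gene on the other strand, Adgre5, and the strand setting of the counting is not given in the sources used here, so reads of the 2 genes may not have been separated.

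The mixed group of transcription, microRNA processing and structured RNA held 7 members, of which 3 fell and 1 rose at 6 h. Ddx20 (ENSMUSG00000027905, chr3:105678270-105687574), or Gemin3, belongs to the SMN complex that assembles spliceosomal snRNPs. It was at 91.2 and 88.6 CPM at 0 h, 93.1 and 94.1 CPM at 3 h, and 74.0 and 72.7 CPM at 6 h, with the 3 h libraries slightly above 0 h and both 6 h libraries well below. Its log2 fold change was −0.29 ± 0.04 (SE, adjusted p = 0.000119) at 6 h. Dhx9, which unwinds double-stranded RNA and acts in transcription, was at 703.8 and 705.7 CPM at 0 h, 664.1 and 683.8 CPM at 3 h, and 646.5 and 656.0 CPM at 6 h. No times overlapped, and the log2 fold change at 6 h was −0.11 ± 0.03 (SE, adjusted p = 0.0121). Without replicate 1 or 2 of 0 h the adjusted p of Dhx9 was 0.0577 and 0.0681, in a range over the alternatives of 0.000149 to 0.0749. Those not called included Ddx1, a helicase of tRNA splicing, and Dhx36, which resolves G-quadruplexes, both with a log2 fold change of 0.00.

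Ddx5 and Ddx17, paralogs that serve as cofactors of the Drosha microRNA-processing complex and as coregulators of transcription, moved in opposite directions. Ddx5 was at 968.2 and 986.7 CPM at 0 h, 1004 and 1011 CPM at 3 h, and 895.5 and 921.6 CPM at 6 h. The 3 h libraries were highest and the 6 h libraries lowest, with a log2 fold change of −0.11 ± 0.03 (SE, adjusted p = 0.0159) against 0 h. Ddx17 was at 609.0 and 620.2 CPM at 0 h, 634.7 and 632.3 CPM at 3 h, and 676.4 and 711.0 CPM at 6 h. Here the 6 h libraries were highest, with a log2 fold change of 0.17 ± 0.03 (SE, adjusted p = 0.000903). The fall of Ddx5 was not called without replicate 2 of 0 h (adjusted p = 0.131), replicate 1 of 3 h (0.0504) or replicate 1 of 6 h (0.0747), in a range over the alternatives of 7.25e-05 to 0.131. Of the Ddx5 exons, 2.91% are shared with small RNA genes on the same strand.

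The ratio of Ddx17 to Ddx5 within a library shows this shift without any scaling between libraries. It was 0.629 in both libraries of 0 h. The values of 3 h, 0.632 and 0.625, lay around that level, and the values of 6 h, 0.755 and 0.771, above it. The sum of both genes was 1577 and 1607 CPM at 0 h and 1572 and 1633 CPM at 6 h, so the summed level overlapped between the times. With 2 libraries against 2, the exact permutation test, two-sided, cannot give a p below 0.333, so the ratios are given as a description.

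**Figure D3:**
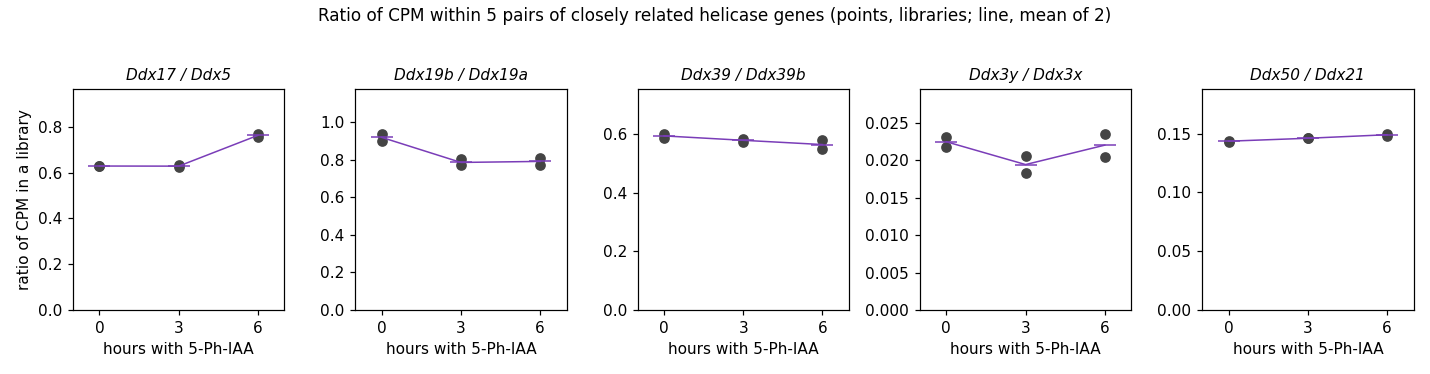
Ratio of CPM within 5 pairs of related helicase genes in each library (points), against hours with 5-Ph-IAA, with a line through the means of 2. The ratio of Ddx17 to Ddx5 has a mean of 0.629 at 0 and 3 h and of 0.763 at 6 h, and that of Ddx19b to Ddx19a is 0.92 at 0 h and 0.786 and 0.791 later.

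In none of the other 4 pairs did both genes receive calls in opposite directions. The ratio of Ddx19b to Ddx19a was 0.899 and 0.94 in the libraries of 0 h. It was 0.802 and 0.77 after 3 h of treatment, then 0.811 and 0.772 after 6 h, so the later libraries all lay below 0 h. Ddx19a was not called at 6 h, with a log2 fold change of −0.05 ± 0.05 (SE, adjusted p = 0.458). The coding sequences of Ddx19a and Ddx19b are 93.6% identical over 1434 aligned bases, and how reads that fit both genes were counted is not given in the sources used here, so the share of each gene is uncertain. Ddx3x and its Y-linked copy Ddx3y, 84.7% identical in coding sequence, carry the same doubt. Ddx21 and Ddx50, which are neighbours on chromosome 10, both fell, and their ratio stayed between 0.143 and 0.15 in the 6 libraries. The Ddx39 to Ddx39b ratio lay at 0.601 and 0.585 at 0 h and at 0.58 and 0.547 at 6 h.

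No member of the translation group was called. Ddx3x, which helps initiation on structured mRNAs, was at 953.4 and 971.5 CPM at 0 h, 969.0 and 1004 CPM at 3 h, and 943.2 and 961.2 CPM at 6 h. The libraries of 0 and 6 h overlapped, and the log2 fold change at 6 h was −0.02 ± 0.03 (SE, adjusted p = 0.761). Dhx29, an initiation factor for structured leaders, had a log2 fold change of 0.02, and the 3 members ranged from −0.04 to 0.02.

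In the remaining small groups 1 of 9 members was called at 6 h against 0 h. Ddx11, a DNA helicase of sister chromatid cohesion, was at 63.3 and 60.2 CPM at 0 h, 65.5 and 66.1 CPM at 3 h, and 70.9 and 69.6 CPM at 6 h. Each time lay above the one before without overlap, and the log2 fold change at 6 h was 0.19 ± 0.05 (SE, adjusted p = 0.0085). Without replicate 2 of 0 h its adjusted p was 0.0866, and over the alternatives it ran from 0.000866 to 0.0989. Dhx30, a helicase of mitochondrial ribosome assembly, was at 105.2 and 108.3 CPM at 0 h, 113.0 and 111.2 CPM at 3 h, and 115.1 and 115.0 CPM at 6 h. The 6 h libraries were highest, but its log2 fold change of 0.11 ± 0.04 (SE) was not called (adjusted p = 0.064); 5 of the 16 alternatives called it higher. Dhx32, whose role is little known, was at 56.1 and 55.5 CPM at 0 h, 58.5 and 58.2 CPM at 3 h, and 60.7 and 59.5 CPM at 6 h, also without overlap and without a call (adjusted p = 0.116). Ddx4, the germline helicase known as Vasa, was at 18.1 and 18.3 CPM at 0 h, 18.1 and 19.6 CPM at 3 h, and 19.7 and 17.7 CPM at 6 h, and the times overlapped. Ddx60, an interferon-induced antiviral factor, was close to the floor of detection, at 0.363 and 0.325 CPM at 0 h, 0.378 and 0.601 CPM at 3 h, and 0.543 and 0.429 CPM at 6 h, where 3 counts are worth 0.139 to 0.181 CPM. Its log2 fold change at 6 h, 0.49, had an SE of 0.47, and it passed the filter on low counts through treated libraries only.

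Between 3 and 6 h, 12 of the 50 helicase genes fell and 1 rose, where 11.8% of all genes tested were called lower and 9.89% higher. Among genes with at least 10 CPM, 18% were called lower and 11% higher, beside 25.5% and 2.13% of the members at that level. The log2 fold change was below 0 in 41 members, with a median of −0.06, against 0.005 over all genes and −0.02 over those with at least 10 CPM. This comparison shares its 6 h libraries with the one above. Those that fell included Ddx20 (−0.35, adjusted p = 2.6e-05), Dhx33 (−0.36), Ddx5 (−0.15), Ddx21 (−0.15), Ddx42 (−0.18), Ddx31 (−0.28), Ddx51 (−0.17), Dhx37 (−0.14) and Dhx16 (−0.11), all as log2 fold changes and all called against 0 h as well. With the feeder markers as a covariate, the log2 fold change from 3 to 6 h was −0.14 for Ddx31 (adjusted p = 0.431, range over the alternatives 0.00164 to 0.431) and −0.12 for Ddx42 (adjusted p = 0.135, range 0.000536 to 0.135). The calls of Dhx37, Dhx16 and Ddx51 were each lost in 8 of 16 alternatives. Ddx17 rose by 0.13 on the same scale. All 16 ribosome biogenesis members had a value below 0, and 7 of them were called. The libraries whose omission lowered the count of 12 most were replicate 2 of 3 h, replicate 1 of 6 h and replicate 1 of 3 h, in this order. Calls over all genes tested fell in the same fits, so the drop is not particular to the members. Ddx17 was not called without replicate 1 or replicate 2 of 3 h (adjusted p = 0.0601 and 0.0755, range over the alternatives 0.000158 to 0.0755).

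The 3 members called between 3 and 6 h and not against 0 h were Ddx52, Ddx55 and Dhx15. Ddx52, of the small-subunit precursor, was at 78.2 and 76.8 CPM at 0 h, 84.5 and 86.3 CPM at 3 h, and 73.8 and 74.8 CPM at 6 h. The 3 h libraries were highest and the 6 h libraries lowest, with a log2 fold change of −0.20 ± 0.04 (SE, adjusted p = 0.00339) from 3 to 6 h. Ddx55, of large-subunit assembly, went from 29.0 and 27.7 CPM at 0 h to 30.5 and 32.4 CPM at 3 h and 26.2 and 27.6 CPM at 6 h, with the same order of times and a log2 fold change of −0.22 ± 0.06 (SE, adjusted p = 0.0201). Dhx15 fell by 0.10 (adjusted p = 0.0481). Without replicate 2 of 3 h the adjusted p of Ddx52 was 0.059, in a range of 0.000953 to 0.059 over the alternatives, that of Ddx55 was 0.194, in a range of 0.00993 to 0.194, and that of Dhx15 was 0.436, in a range of 0.0145 to 0.436.

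Markers of other cells moved over the same interval. All 26 feeder fibroblast markers had a log2 fold change above 0 from 3 to 6 h, with a median of 0.13, and 8 were called higher. With the mean feeder marker level as a covariate, 5 members were called lower from 3 to 6 h, in place of 12. At 6 h against 0 h it was 16, in place of 14. The mean feeder level, in log2 CPM, was 8.36 and 8.37 at 3 h, lower than in every library of 0 and 6 h. In this fit the feeder level can therefore not be fully told apart from the 3 h group. The calls over all genes moved too. From 3 to 6 h they went from 1558 higher and 1856 lower to 728 and 1007. At 6 h against 0 h they went from 1575 higher and 1940 lower to 2048 and 2529. At 6 h against 0 h, 1 of the 26 feeder markers was called higher and 0 lower. Of the 10 ES cell markers, 5 fell and 3 rose at 6 h against 0 h, among them Esrrb (−0.42), Fbxo15 (−0.46) and Nanog (0.13) as log2 fold changes. The part of ES cell state in the helicase values was not tested.

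Likeness to DDX6 was measured as the BLOSUM62 local alignment score of each protein to DDX6. The 10 members with the highest scores, 505 to 629, held 4 that fell and 0 that rose at 6 h against 0 h, with a median log2 fold change of −0.10. The other 40 held 10 that fell and 2 that rose, with a median of −0.03. The difference between these groups of members was not tested. As background, 12.3% of all genes tested were called lower and 10% higher at 6 h against 0 h. Among genes with at least 10 CPM it was 18.2% and 11.4%. Across the 50 genes the score and the log2 fold change at 6 h had a Pearson r of −0.17 and a Spearman rho of −0.13, a description over genes of the same libraries, and genes are not independent replicates. The 3 most alike were Ddx39 (35.6% identical over 390 residues), Ddx39b (36.0%) and Ddx20 (33.8%), of which Ddx39 and Ddx20 fell. Ranked by percent identity over a long alignment, Ddx19a (37.2%) and Ddx19b (36.9%) would come first. Dhx33, with the lowest log2 fold change, is among the least alike in sequence.

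**Figure D4:**
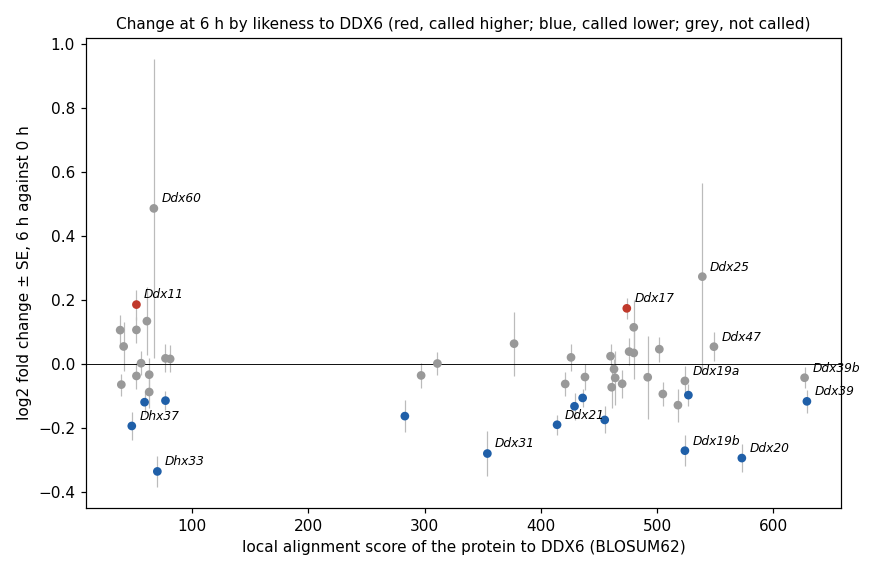
Log2 fold change at 6 h against 0 h, with its SE, against the local alignment score of each of the 50 proteins to DDX6; red and blue points were called higher and lower. Genes that fell lie at both ends of the score, from Dhx37 and Dhx33 on the left to Ddx20 and Ddx39 on the right.

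Composition, level and class name were described in the same way. The share of G and C in the coding sequence ran from 41.6% in Ddx60 to 61.3% in Dhx34, with a median of 50.55% over the members and 49.5% over the 14 that fell, and its Spearman rho with the log2 fold change at 6 h was 0.01 over 50 genes. For the mean CPM the Pearson r was −0.48 on the log2 scale of CPM and the Spearman rho −0.26. The members of lowest level, Ddx60 at 0.44 CPM and Ddx25 at 1.35 CPM, also had the highest log2 fold changes at 6 h. These were 0.49 (SE 0.47) and 0.27 (SE 0.29), and neither was called. The Pearson r without these genes was not computed. By name, 10 of 35 Ddx genes, or 28.6%, fell and 2 rose at 6 h against 0 h. Of 15 Dhx genes, 4, or 26.7%, fell and 0 rose. The background was 12.3% lower and 10% higher over all genes tested, and 18.2% and 11.4% among those with at least 10 CPM. The E-box CACGTG, which reads the same on both strands, occurred in the RefSeq promoters (GRCm38.p6, 250 bases before to 50 after the start) of 7 of the 46 members with an entry, or 15.2%, and in those of 3 of the 13 with an entry that fell: Ddx42, Ddx5 and Dhx33. Over all promoters in the table the share was 7.15%, and over all genes with any promoter there it was 8.09%.

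Outside the members chosen by name, a list held 23 other RNA helicases whose symbols the rule does not match. At 6 h against 0 h, 10% of all genes tested were called higher and 12.3% lower. Of the 23, 3 rose, or 13%, and 2 fell, or 8.7%. Those that rose were Dicer1 (0.11), which cuts microRNA precursors, Dqx1 (0.62) and Ythdc2 (0.19), which binds methylated RNA, all as log2 fold changes. Dqx1 was at a low level, 1.97 and 2.27 CPM at 0 h and 3.56 and 3.01 CPM at 6 h, with an SE of 0.21. Among those that fell was Upf1 (−0.14), of nonsense-mediated decay. From 3 to 6 h, 2 rose, Helz2 and Ythdc2, and 2 fell, among them Eif4a2. At 3 h against 0 h 0 of the 23 were called by edgeR and 2 had an unadjusted p under 0.05. The list was counted with edgeR alone. Of 36 genes for cofactors of these helicases, 8 fell at 6 h against 0 h, or 22.2%. This stands beside 12.3% of all genes tested and 18.2% of those with at least 10 CPM. Of the 36, 2 rose, or 5.56%, beside 10% and 11.4%. Those that rose were Eif4g3 (0.38, adjusted p = 9.72e-06), a translation initiation scaffold, and Lsm14b (0.17), a translational repressor that binds DDX6. Those that fell were Nkrf (−0.29), Patl1 (−0.20), Casc3 (−0.19), Aggf1 (−0.19), Magoh (−0.15), Tfip11 (−0.14), Nup214 (−0.11) and Eif4b (−0.10), all as log2 fold changes. Of the 6 partners of DDX6 on the list, Patl1 and Lsm14b were called, and Cnot1 (−0.03), Lsm14a (−0.03), Edc3 (−0.09) and Eif4enif1 (0.07) were not.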

How the data were processed

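Expression was measured by single-end, stranded polyA RNA-seq in 6 libraries. The authors' deposited table holds raw counts per gene; per the submitters' processing notes, fastp 0.22.0, HISAT2 2.2.1 and featureCounts 2.0.3 were used with GRCm38 (mm10). For the annotation release, the strand setting and multi-mapping reads, the sources used here name nothing. Gene IDs were matched to GENCODE M21, which named 55227 of 55487. Counts were tested with edgeR 4.0.16 in R 4.3.3: TMM factors, filterByExpr (minimum count 10), a single quasi-likelihood fit in which each time had its own mean (6 libraries, leaving 3 residual degrees of freedom), and Benjamini-Hochberg adjustment over the 15748 genes tested, with a call at an adjusted p under 0.05. The non-legacy form of the fit was chosen to match earlier processing of these data, after the counts of calls under both forms had been seen; the legacy form is an added alternative. The standard error is the absolute log2 fold change divided by the square root of F. The script was tested on simulated data with changes of 1.5-fold or more, which no member reached. That test does not cover changes as small as those of the members. Depth limits low genes: 3 counts are worth 0.139 to 0.181 CPM. These floors cover counting error only, while standard errors include the spread between libraries.

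Proteins were translated from GENCODE M21 and aligned to DDX6 with BLOSUM62; the score, rather than percent identity, was settled on with both rankings seen. Alternatives were other scaling factors, filters, DESeq2 1.42.0, limma 3.58.1 (voom), a replicate block, a feeder covariate, 4-library fits and leaving out each library. Members, roles and lists were chosen with earlier results of these data known. Members called are all named, and so are the other RNA helicases called except 1, which is not reported here; values per library are given for the 14 with the smallest adjusted p at 6 h against 0 h, for the 3 most like DDX6 and for the most abundant of each role group per length, and up to 2 not called per group are named. Ddx52 and Ddx55 were added with values per library after their values were seen, and so were the E-box search and the naming of cofactors.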

Additional observations from a re-analysis of the deposited data

How the results depend on the processing

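Over 16 alternatives no direction of a called member or of the members' medians reversed. At 3 h against 0 h 0 members were called in all of them except the fit with a replicate block, which called 1 member lower, Ddx19b. At 6 h against 0 h (2 higher, 14 lower), library totals without scaling factors gave 4 and 7. DESeq2 gave 1 and 8, no filter on low counts gave 7 lower and the 4 libraries compared alone gave 9 lower. Leaving out each library gave 1 to 2 higher and 6 to 10 lower. From 3 to 6 h (1 higher, 12 lower), no filter gave 0 and 5, DESeq2 6 lower and the feeder covariate 5 lower, and leaving out each library gave 0 to 1 higher and 4 to 12 lower. With 1 library left in a group, it is assumed to vary like the others. Leaving out any library also lowered the calls over all genes tested at 6 h against 0 h. The legacy test, added after seeing the data, gave 3 and 13 at 6 h against 0 h. Over all genes at 6 h against 0 h, DESeq2 called 522 higher and 1059 lower and no filter 790 and 1239. From 3 to 6 h, where 1558 genes were called higher and 1856 lower, DESeq2 gave 416 and 931. No filter gave 648 and 1077 there, and the feeder covariate 728 and 1007. At 3 h against 0 h, where 8 and 14 genes were called, the replicate block called 55 and 187.

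Over all genes tested, deviations of same-numbered libraries correlated at 0.037, 0.04 and −0.021 between the times. Correlations this small over all genes do not settle if the replicate numbers pair the libraries, since a pairing may touch only some genes. The mean log2 CPM of the feeder markers was 8.55 and 8.46 in replicates 1 and 2 of 0 h. It was 8.36 and 8.37 in those of 3 h, and 8.56 and 8.43 in those of 6 h. With the replicate block, 3 members were higher and 14 lower at 6 h against 0 h. Libraries of the same time differed by more than sampling noise, with a chi-square per degree of freedom of 1.97 to 6.46. The cause of these shifts was not tested. The members' median log2 fold change at 6 h against 0 h ran from −0.047 to −0.005, the latter with library totals, which moved the median of all genes from 0.002 to 0.037.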
